A study of Homo sapiens with 8 samples.

Results

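The genes described here encode the machinery of nucleotide excision repair with the transcription factor TFIIH, of post-replicative mismatch repair and of translesion DNA synthesis. Their promoters were read in OGAP-seq, a pull-down of DNA fragments that carry oxidative damage. The 31 genes were chosen by name, and each was found by its Ensembl identifier among the 19957 promoter windows of the count table. The study used RPE1, an immortalised cell line of retinal pigment epithelial origin, in 4 groups of 2 libraries: KD OGAP and KD input from cells labelled as a knockdown of NuMA, a nuclear protein that organises spindle poles (TDIF is the labels' other name for it), after doxycycline, and WT OGAP and WT input from cells without doxycycline. Input is the same kind of DNA without the pull-down. Loss of NuMA and exposure to doxycycline therefore cannot be told apart, and the construct behind the knockdown is not given in the sources used here. Since DNA was counted, neither the depletion nor the cell type could be checked from these counts.

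Nucleotide excision repair removes bulky lesions as a short single-stranded patch. Lesions are found either genome-wide, by XPC with RAD23B and the DDB1 complex, or by a stalled RNA polymerase II, through ERCC6, ERCC8 and UVSSA. Both routes bring in TFIIH, whose helicases ERCC3 and ERCC2 open the DNA; XPA and the single-strand binding protein RPA then hold it for the nucleases ERCC5 and ERCC1-ERCC4. Mismatch repair corrects replication errors that MSH6 or MSH3 heterodimers recognise, with MLH3, PMS1 and PMS2 as subunits of the MutL complexes. Translesion polymerases (POLH, POLK, REV1 and REV3L) copy past lesions that were not removed. Oxidised guanine is mainly a substrate of base excision repair, whose genes are not among those described here. The values below describe damage reads at the promoters of these genes, not their expression or activity.

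Whether a member could be measured at all followed the layout of its promoter. Each window reaches 1000 bp either side of an annotated gene start, and 12 of the 31 member windows (38.7%) overlapped another window, against 18.7% of all windows. The overlapping partner lay on the opposite strand in 11 of these 12. The partners that could be named were LSM3 beside XPC, NDUFAF2 beside ERCC8, HPS5 beside GTF2H1, EIF2B1 beside GTF2H3, SERAC1 beside GTF2H5, XPO5 beside POLH, CERT1 beside POLK, ORMDL1 beside PMS1 and AIMP2 beside PMS2. The 12 overlapping members held a median of 11.5 reads summed over the 8 libraries, and the 19 others held a median of 260, from 99 at RPA3 to 389 at ERCC2.

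Reads in the overlapping windows broadly rose with the bases that a window did not share, though not at every member. GTF2H4 with 58 unshared bases and POLH with 73 each held 9 reads, more than GTF2H5 below. ERCC8, the ubiquitin ligase subunit of transcription-coupled repair, had 54 unshared bases and 0 reads in all 8 libraries. GTF2H5, the smallest TFIIH subunit, had 80 unshared bases and likewise 0 reads. PMS2, the nuclease subunit of the main MutL complex, had 118 unshared bases and 14 reads. XPC, the lesion sensor of global repair, had 427 unshared bases and 41 reads, with 10 and 3 in KD OGAP against 6 and 6 in KD input, and 0 and 5 in WT OGAP where the WT inputs had 4 and 7. RPA1, the large RPA subunit, had 934 unshared bases and 175 reads. Per kilobase of unshared sequence, XPC had 96.0 reads and RPA1 187, where all windows without overlap had a median of 132 and all windows with at least 200 and under 1000 unshared bases a median of 127. The counting tool named in the submitters' notes is featureCounts, with no settings given; its part in these low counts was not tested.

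**Figure D1:**
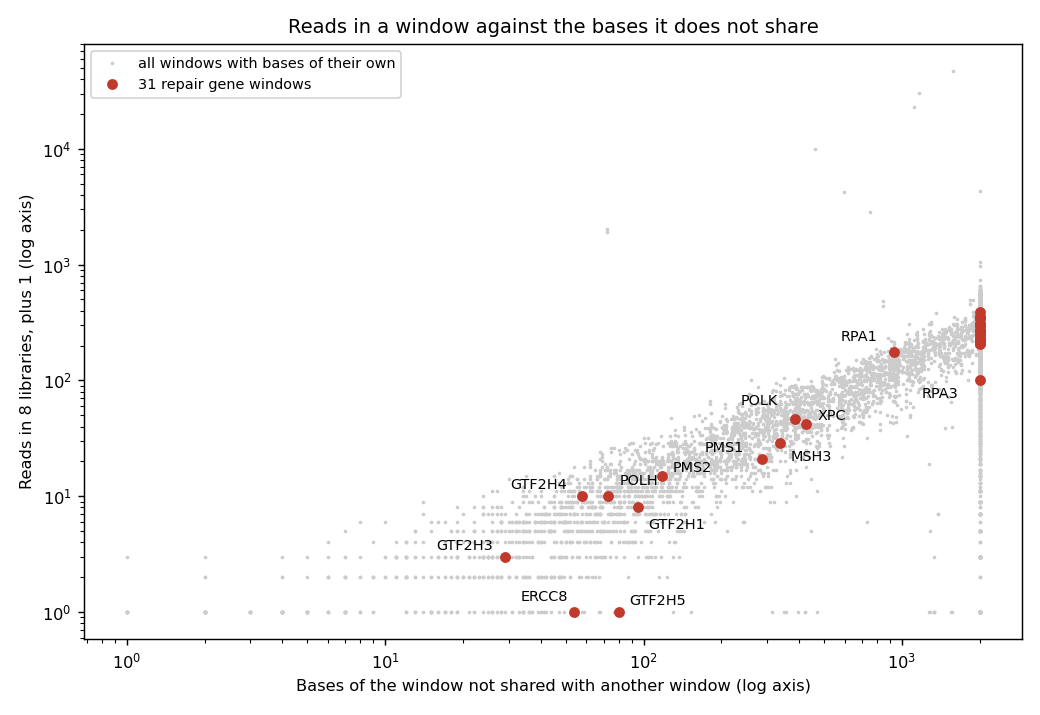
Reads summed over the 8 libraries, plus 1, against the number of bases of a window that no other window shares, both on log axes, for windows with at least 1 such base (grey) and the 31 repair gene windows (red). The 12 overlapping members lie along the band of all windows, from ERCC8 and GTF2H5 at 0 reads to RPA1 at 175 reads.

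The count filter of the test removed 11 of the 31 members, all of them overlapping windows with 29 to 427 unshared bases and at most 45 reads. These were XPC, ERCC8, GTF2H1, GTF2H3, GTF2H4, GTF2H5, POLH, POLK, MSH3, PMS1 and PMS2. So 4 of the 6 TFIIH core subunits and 3 of the 5 mismatch repair genes had no test. The 20 tested members were RAD23B, DDB1, XPA, ERCC6, UVSSA, ERCC2, ERCC3, CDK7, CCNH, MNAT1, RPA1, RPA2, RPA3, ERCC1, ERCC4, ERCC5, REV1, REV3L, MSH6 and MLH3.

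A window also need not lie at the start that RefSeq gives for its gene. In 27 of the 31 members the window covered a RefSeq start, among them 16 of the 20 tested. The window of MSH6 lay 87616 bp upstream of it, that of ERCC1 27282 bp, that of DDB1 9492 bp and that of ERCC5 1189 bp. Values under MSH6, ERCC1 and DDB1 therefore describe an annotated distal start and not the RefSeq promoter. The ERCC5 window ended at chr13:102845843, close upstream of the RefSeq start at 102846032, and did not cover that start.

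Member promoters were richer in G and C than RefSeq promoters at the median. Among the 25 members with a RefSeq promoter inside their window, the 250 bases before the start had a median G and C content of 64.4%, against 58.0% over 35116 RefSeq promoters (GRCh38.p14). Those reference promoters were taken without a limit to protein-coding genes. The median number of CpG sites was 23, against 11. Runs of GGG or longer on either strand, which are sites prone to guanine oxidation, numbered 12 at the median, against 11, and were present in 25 of 25 members, against 99.0% of all promoters. The pattern of 4 such runs spaced by 1 to 7 bases on 1 strand, the letters of a possible G-quadruplex, was in 8 of the 25 (32.0%), against 23.5%.

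The promoters of the members that passed the test in WT and had a RefSeq start in their window, and that of REV3L, which had the lowest WT change, read as follows, 5′ to 3′ along the strand of the gene and ending at the base before the start, with runs of GGG or CCC and longer in capitals (RefSeq, GRCh38.p14).
RPA1 (chr17:1829755-1830004, plus strand): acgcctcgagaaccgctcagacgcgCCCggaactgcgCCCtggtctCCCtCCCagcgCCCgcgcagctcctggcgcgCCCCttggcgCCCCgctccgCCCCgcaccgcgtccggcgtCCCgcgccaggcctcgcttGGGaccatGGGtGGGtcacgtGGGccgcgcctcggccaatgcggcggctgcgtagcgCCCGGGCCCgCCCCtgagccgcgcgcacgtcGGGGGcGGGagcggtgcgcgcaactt
MLH3 (chr14:75051468-75051717, minus strand): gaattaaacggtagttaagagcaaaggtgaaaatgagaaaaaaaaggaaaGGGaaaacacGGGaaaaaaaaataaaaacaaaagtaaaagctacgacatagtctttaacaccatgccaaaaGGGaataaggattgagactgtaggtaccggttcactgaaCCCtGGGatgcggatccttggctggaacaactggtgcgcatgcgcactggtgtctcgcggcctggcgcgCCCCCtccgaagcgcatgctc
ERCC3 (chr2:127294145-127294394, minus strand): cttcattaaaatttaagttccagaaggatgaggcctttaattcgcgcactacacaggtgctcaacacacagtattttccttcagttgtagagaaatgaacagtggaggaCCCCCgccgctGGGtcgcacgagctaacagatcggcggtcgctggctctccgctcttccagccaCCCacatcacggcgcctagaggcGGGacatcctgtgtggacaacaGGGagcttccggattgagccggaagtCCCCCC
UVSSA (chr4:1346958-1347207, plus strand): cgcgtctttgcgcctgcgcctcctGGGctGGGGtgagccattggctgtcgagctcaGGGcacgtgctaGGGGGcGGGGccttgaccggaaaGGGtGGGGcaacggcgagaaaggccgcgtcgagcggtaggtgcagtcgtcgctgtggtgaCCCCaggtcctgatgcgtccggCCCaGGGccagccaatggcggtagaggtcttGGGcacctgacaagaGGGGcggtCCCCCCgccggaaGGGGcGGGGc
REV3L (chr6:111483712-111483961, minus strand): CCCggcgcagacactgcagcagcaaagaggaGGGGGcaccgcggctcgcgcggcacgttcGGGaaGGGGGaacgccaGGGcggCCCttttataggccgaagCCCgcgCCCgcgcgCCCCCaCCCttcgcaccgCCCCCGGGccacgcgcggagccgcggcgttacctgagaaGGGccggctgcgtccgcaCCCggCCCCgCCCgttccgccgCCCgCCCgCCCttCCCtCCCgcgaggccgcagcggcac
RPA1 had 19 runs in 78.8% G and C, MLH3 6 runs in 47.2%, ERCC3 6 runs in 55.6%, UVSSA 15 runs in 70.8% and REV3L 21 runs in 78.4%. Across the 14 tested members with such a promoter, G and C content and the log2 change of OGAP over input had a Pearson r of -0.29 (Spearman rho -0.32) in WT and -0.16 (rho -0.27) in KD. Without RPA1, whose window overlaps another, r was -0.59 in WT and -0.48 in KD, so r depended on whether RPA1 was kept. These r values describe windows that share their libraries. G and C content was read only from the bases before the start, whereas reads were counted over the whole window. No r over all windows is given, so whether the relation is particular to these genes was not tested.

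Total promoter reads ranged from 368593 to 771138 per library. The members held 0.110% and 0.116% of them in KD OGAP, against 0.122% and 0.122% in KD input, and 0.109% and 0.131% in WT OGAP, where the WT inputs had 0.112% and 0.118%. Levels are given below in CPM, reads scaled to the promoter reads of the library with TMM factors. Log2 changes carry their standard error, and higher or lower is relative to the typical promoter window. Adjusted p-values come from edgeR's quasi-likelihood test, with Benjamini-Hochberg adjustment over all 17130 tested windows. The labels do not say whether the 2 libraries of a group were separate cultures, so the p-values measure a spread between libraries that may be technical.

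**Figure D2:**
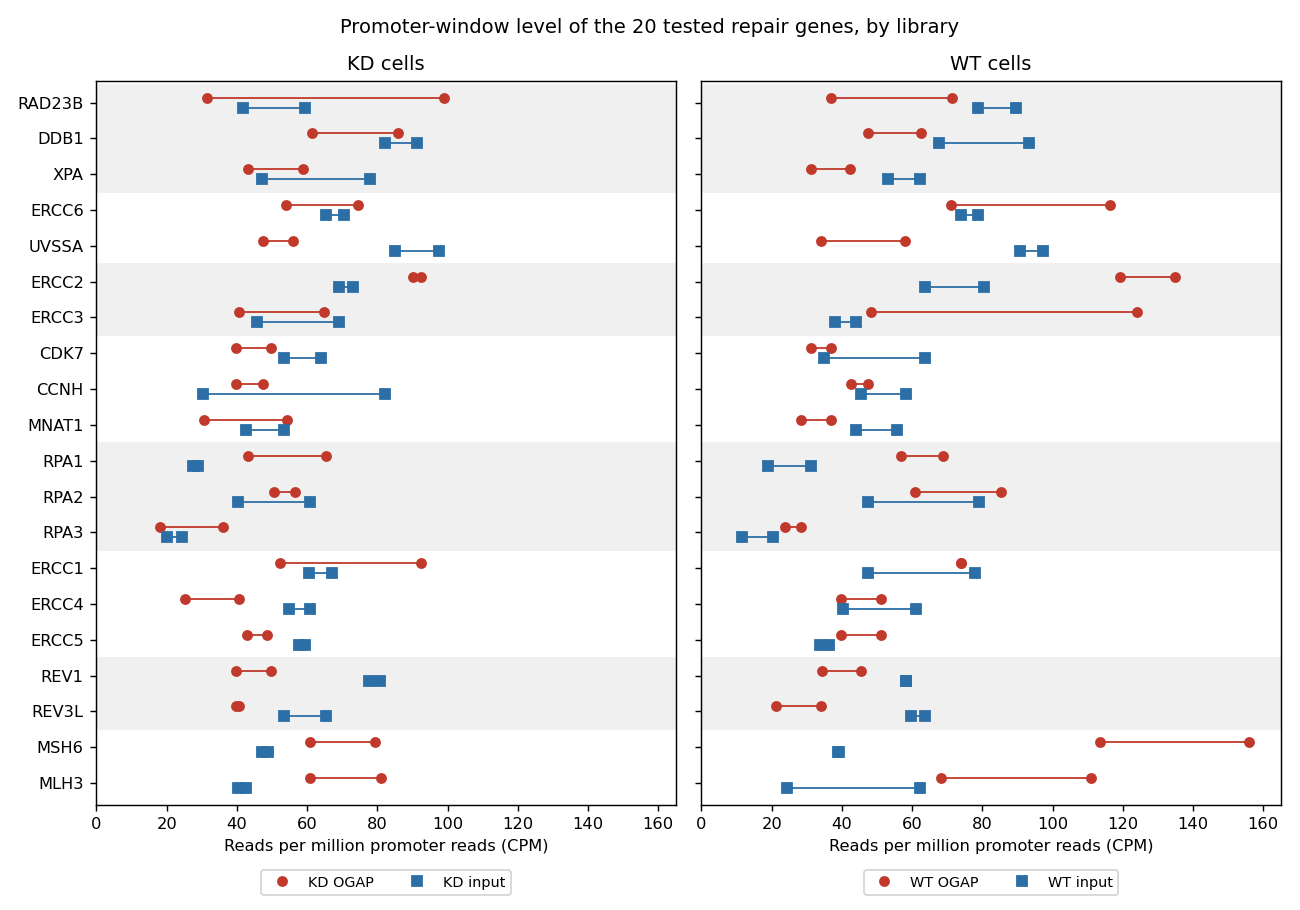
Level of the 20 tested windows in CPM (x axis, from 0) in each library, with KD cells on the left and WT cells on the right; circles are OGAP libraries, squares are input libraries, lines join the 2 libraries of a group, and grey or white bands separate the roles. MSH6 had 114 and 156 CPM in WT OGAP, above all its other libraries.

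OGAP over input in WT asked which repair gene promoters stood above or below the typical promoter in the pull-down of cells without doxycycline. Of the 20 tested members, 4 were higher (MSH6, RPA1, ERCC3 and MLH3) and 1 was lower (UVSSA). With edgeR these 5 were 25.0% of the tested members, where 13.7% of all tested windows passed, 9.25% higher and 4.45% lower. With DESeq2, 1 of the 20 (MSH6) passed, and 884 of all 17130 windows did, a similar share. The DESeq2 adjusted p was 0.127 at RPA1, 0.148 at UVSSA, 0.202 at ERCC3 and 0.204 at MLH3. At an unadjusted p under 0.05 stood 7 members (35.0%), against 28.5% of all windows. The median change of the members was 0.02, against -0.02 over all windows, with 10 members positive and 10 negative. OGAP and input libraries did not overlap in 14 of the 20, 7 higher and 7 lower, where 56.6% of all windows were so separated, 28.5% higher and 28.0% lower.

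MSH6, the partner that gives the mismatch sensor its preference for single mismatches, had the clearest change. Its window (Ensembl ENSG00000116062, chr2:47694529-47696529, hg38, plus strand) had 40 and 59 reads in the WT OGAP libraries and 29 and 30 in the WT inputs. Both OGAP libraries held more reads than both inputs, although the OGAP libraries were the shallower ones. The level was 134.8 ± 29.9 CPM in WT OGAP and 39.1 ± 0.3 CPM in WT input (SD, n = 2), 3.44-fold higher in OGAP (log2 1.78 ± 0.33, adjusted p = 7.15e-05). MSH6 passed with each of the 8 libraries left out in turn, at 1.53 to 1.98, and with DESeq2. The window lies far upstream of the RefSeq start, as given above.

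MLH3, a MutL subunit best known from meiotic crossing-over and from repeat instability, was the other tested mismatch repair gene. It held 24 and 42 reads in the WT OGAP libraries and 18 and 48 in the WT inputs, with levels of 89.6 ± 30.3 CPM in OGAP and 43.3 ± 26.8 CPM in input. The lower OGAP library, at 68.2 CPM, lay just above the higher input library, at 62.3 CPM. The change was 1.04 ± 0.37 (adjusted p = 0.0446). It was 0.64 without WT OGAP replicate 2 and 0.52 without WT input replicate 1, and 1.86 without WT input replicate 2. The call was lost in the first pair, and also without KD input replicate 2 (1.03, adjusted p = 0.0523).

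In RPA, the trimer that coats single-stranded DNA, the large subunit gene passed and the others did not. RPA1 held 20 and 26 reads in WT OGAP and 14 and 24 in WT input, or 62.8 ± 8.4 CPM in OGAP against 25.1 ± 8.6 CPM in input. OGAP and input did not overlap, and the change was 1.32 ± 0.44 (adjusted p = 0.0333). This window shares 1067 of its bases with another, and the call was lost when each of the 4 WT libraries in turn was left out: the change was 1.43 and 1.17 without WT OGAP replicates 1 and 2, and 0.997 and 1.71 without WT input replicates 1 and 2. RPA2 held 30 and 23 reads in WT OGAP and 35 and 61 in WT input, with overlapping levels of 60.8 to 85.2 CPM in OGAP and 47.5 to 79.1 CPM in input. RPA3 held 10 and 9 reads in WT OGAP and 15 and 9 in WT input, the fewest reads in total of the tested members. Its levels were 28.4 and 23.8 CPM in OGAP against 20.3 and 11.7 CPM in input. The OGAP levels lay above both inputs, at a change of 0.70 ± 0.62 (adjusted p = 0.479).

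Of the 6 TFIIH core genes 2 were tested, both helicase genes, and 1 passed. ERCC3, the XPB translocase, held 17 and 47 reads in WT OGAP and 28 and 34 in WT input. Its OGAP libraries differed widely, at 48.3 and 124 CPM, yet both exceeded the inputs at 38.0 and 44.1 CPM. The change was 1.08 ± 0.37 (adjusted p = 0.0399), and it was 0.23 without WT OGAP replicate 2, 0.96 without WT input replicate 1 and 1.18 without WT input replicate 2, none of which passed. ERCC2, the XPD helicase, held 42 and 51 reads in WT OGAP and 47 and 62 in WT input, or 127.0 ± 10.9 CPM in OGAP against 72.1 ± 11.8 CPM in input, and missed the threshold (adjusted p = 0.0516).

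UVSSA, which recruits TFIIH to stalled polymerase, was the member that was lower in WT OGAP. It held 12 and 22 reads in the WT OGAP libraries and 67 and 75 in the WT inputs, or 34.1 and 58.1 CPM in OGAP against 90.9 and 97.3 CPM in input. The OGAP libraries lay below both inputs, and the level was 2.02-fold lower (log2 -1.02 ± 0.35, adjusted p = 0.0390). Without WT OGAP replicate 1 it was -0.70 (adjusted p = 0.294), without WT input replicate 1 -1.08 and without WT input replicate 2 -0.97, and none of these 3 passed; without WT OGAP replicate 2 it was -1.46. The window lies at a start inside the gene, 5254 bp past the beginning of the RefSeq record. ERCC6, the CSB ATPase of the same pathway, held 25 and 44 reads in WT OGAP and 58 and 57 in WT input, and its levels overlapped (71.0 and 116 CPM in OGAP against 78.7 and 73.9 CPM in input).

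The translesion genes tested had levels below input without passing. REV3L, the catalytic subunit of polymerase zeta, held 12 and 8 reads in WT OGAP and 47 and 46 in WT input, or 27.6 ± 9.2 CPM in OGAP against 61.7 ± 2.9 CPM in input. The groups did not overlap, and the change of -1.16 ± 0.43 (95% interval -2.01 to -0.32) had an adjusted p of 0.0566. It passed without KD OGAP replicate 1 and with upper quartile scaling. It did not pass with DESeq2 (adjusted p = 0.191) or with any WT library left out. The change was -1.55 and -0.85 without WT OGAP replicates 1 and 2. REV1, the scaffold for translesion polymerases, held 16 and 13 reads in WT OGAP and 43 and 45 in WT input, likewise without overlap, at 39.9 ± 7.8 CPM in OGAP against 58.3 ± 0.041 CPM in input.

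The 3 tested damage recognition genes had changes of -0.64 to -0.56, and none passed. RAD23B, which stabilises XPC, held 13 and 27 reads in WT OGAP and 58 and 69 in WT input (-0.62 ± 0.37, adjusted p = 0.267). DDB1, the adaptor of the ultraviolet damage sensor, held 22 and 18 reads in WT OGAP and 50 and 72 in WT input. XPA, the verification factor, held 11 and 16 in WT OGAP and 46 and 41 in WT input. In all 3 genes the OGAP levels lay below the inputs. In the CDK-activating kinase of TFIIH, the range was -0.60 to -0.20. MNAT1, its assembly factor, held 10 and 14 reads in WT OGAP and 41 and 34 in WT input (-0.60 ± 0.44, adjusted p = 0.385). The kinase gene CDK7 held 11 and 14 in WT OGAP and 47 and 27 in WT input, and the cyclin gene CCNH 15 and 18 in WT OGAP and 43 and 35 in WT input, with levels that overlapped in both. Among the incision genes the range was -0.16 to 0.36. ERCC5, the 3′ nuclease, had the lowest p of these at 0.36 ± 0.43 (adjusted p = 0.609), with 18 and 15 reads in WT OGAP and 25 and 28 in WT input. ERCC1 and ERCC4, which form the 5′ nuclease, had overlapping levels, while the OGAP levels of ERCC5 lay above both of its inputs. ERCC1 held 26 and 28 reads in WT OGAP and 35 and 60 in WT input, and ERCC4 18 and 15 in WT OGAP and 45 and 31 in WT input.

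**Figure D3:**
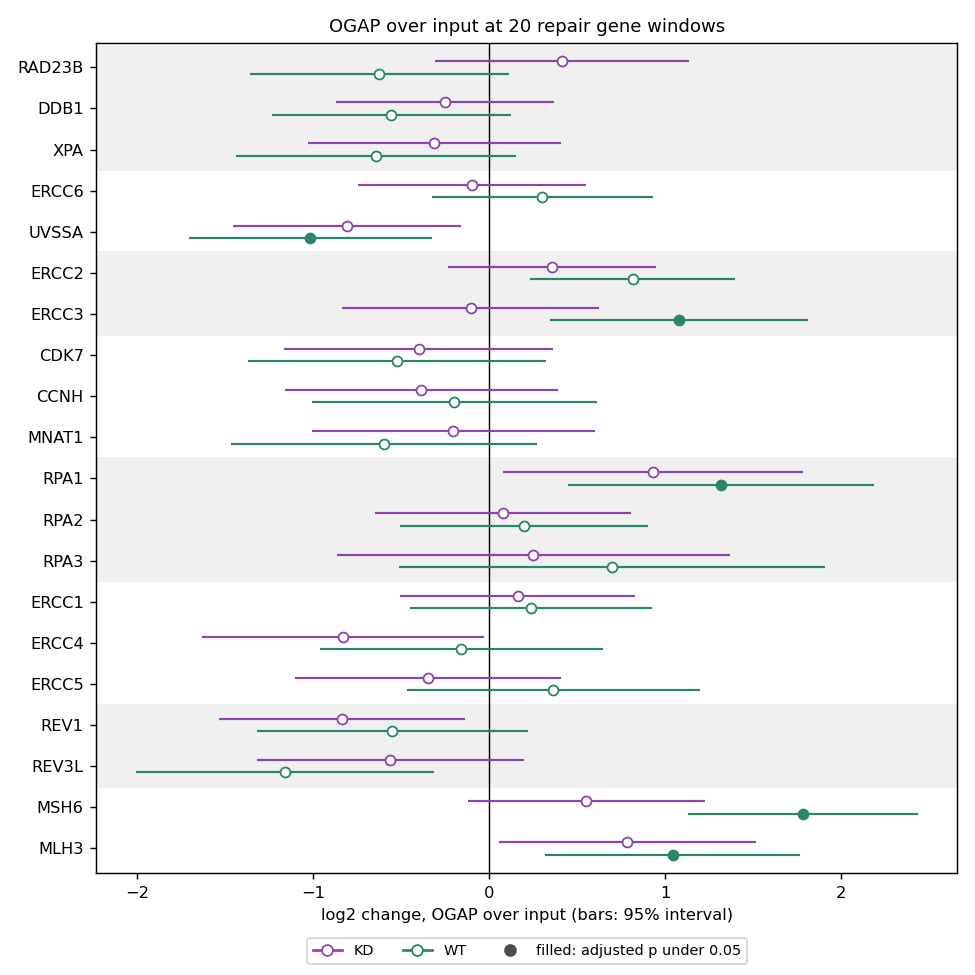
Log2 change of OGAP over input for the 20 tested windows, with KD above WT for each gene and bars for the 95% interval; filled points passed the adjusted threshold. The 5 filled points are all WT, 4 above 0 and UVSSA below it, and no KD point is filled.

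The same question in NuMA-depleted cells, OGAP over input in KD, gave no member that passed, where 0.736% of all windows did, 0.63% higher and 0.105% lower. With edgeR 0 of 20 members were called and with DESeq2 0, while 5 had an unadjusted p under 0.05 (25.0%, against 12.6% of all windows). The members ranged from -0.83 to 0.93 with a median of -0.15, against 0.03 over all windows. That median was 0.018 without KD input replicate 1, and it was -0.063 or -0.32 when replicate 1 or replicate 2 of KD OGAP was left out. OGAP and input did not overlap in 10 members, 4 higher and 6 lower, where 43.9% of all windows were so separated, 24.3% higher and 19.6% lower.

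Of the members called in WT, MSH6, MLH3, RPA1 and UVSSA had the same sign in KD, and the sign at ERCC3 turned with the library left out. MSH6 held 44 and 27 reads in KD OGAP, while the KD inputs held 34 and 31, or 70.1 ± 13.0 CPM in OGAP against 48.1 ± 1.2 CPM in input; the levels did not overlap, and the change was 0.55 ± 0.34 (adjusted p = 0.530). MLH3 held 45 and 27 in KD OGAP against 28 and 28 in KD input, again without overlap, at 0.78 ± 0.37 (adjusted p = 0.356). RPA1 held 24 and 29 in KD OGAP against 19 and 19 in KD input, likewise apart, at 0.93 ± 0.44 (adjusted p = 0.348).

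UVSSA held 31 and 21 reads in KD OGAP, while the KD inputs held 59 and 64, with the OGAP levels below both inputs (51.6 ± 6.0 CPM in OGAP against 91.2 ± 8.8 CPM in input, log2 -0.81 ± 0.33, adjusted p = 0.253). ERCC3 held 36 and 18 in KD OGAP against 48 and 30 in KD input, with overlapping levels and a change of -0.11 ± 0.37 (adjusted p = 0.94), which turned to 0.17 when replicate 2 of KD OGAP was left out and to 0.21 without KD input replicate 1. REV1, with 22 and 22 reads in KD OGAP against 56 and 51 in KD input, had the lowest value of all members (-0.83 ± 0.36, adjusted p = 0.292), and its levels did not overlap, at 44.7 ± 7.1 CPM in OGAP against 79.2 ± 2.1 CPM in input. ERCC4 was at -0.83 ± 0.41 (14 and 18 reads in KD OGAP against 38 and 40 in KD input, adjusted p = 0.383).

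RAD23B showed the widest spread between replicates in KD OGAP. It held 55 and 14 reads there, or 99.1 and 31.6 CPM, while the KD inputs held 29 and 39, and its change of 0.41 ± 0.37 (adjusted p = 0.694) turned to -0.68 without KD OGAP replicate 1. The other values named by the lowest p of their role were 0.36 ± 0.30 at ERCC2 (adjusted p = 0.668) and -0.40 ± 0.39 at CDK7 (adjusted p = 0.729).

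The KD and WT comparisons of OGAP with input share no library, though 1 model gave the spread for both. Their signs agreed in 16 of 20 members (80.0%), against 67.7% of all 17130 windows. The change was smaller in size in KD than in WT in 17 of 20 members (85.0%), against 64.7% of all windows. The 5 members called in WT were chosen by their WT values, so the sizes of their changes in KD are given as a description.

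KD against WT in OGAP asked which of these promoters took more or less of the pulled-down DNA after the knockdown, and none passed, where 0.035% of all windows did, 0.0175% higher and 0.0175% lower. The comparison shares the OGAP libraries of each state with the comparisons above, so values of members called in WT are given as a description. With edgeR 0 of 20 were called and with DESeq2 0; 1 member, MSH6, had an unadjusted p under 0.05 (5.0%, against 10.6% of all windows). The members ranged from -0.93 to 0.54, with a median of -0.02 and 10 on either side of 0. The KD and WT libraries did not overlap in 6 members: XPA, CDK7 and REV3L were higher in both KD libraries, and ERCC2, RPA2 and MSH6 lower, where 39.5% of all windows were so separated, 19.6% higher and 19.9% lower.

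MSH6 had 79.3 and 60.9 CPM in KD OGAP, against 114 and 156 CPM in WT OGAP. The change was -0.93 ± 0.33 with a 95% interval of -1.57 to -0.29 (adjusted p = 0.297). ERCC3 had 64.9 and 40.6 CPM in KD OGAP, against 48.3 and 124 CPM in WT OGAP, at -0.70 ± 0.38 (adjusted p = 0.515). The pairs of ERCC3 overlap, and the change was 0.15 without WT OGAP replicate 2, the library with 124 CPM. ERCC6 was at -0.56 ± 0.34 (adjusted p = 0.570), with 54.1 and 74.5 CPM in KD OGAP, against 71.0 and 116 CPM in WT OGAP.

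REV3L had 39.6 and 40.6 CPM in KD OGAP, against 34.1 and 21.1 CPM in WT OGAP, at 0.54 ± 0.47 (adjusted p = 0.718). DDB1 was at 0.41 ± 0.36 and CDK7 at 0.37 ± 0.46, and RPA2 and ERCC4 at -0.45 ± 0.38 and -0.48 ± 0.46 (all with an adjusted p of at least 0.712). The other members called in WT were at -0.33 ± 0.37 (MLH3), -0.22 ± 0.43 (RPA1) and 0.16 ± 0.39 (UVSSA). By role, the changes of the tested genes ran from 0.30 to 0.45 in damage recognition, -0.56 to 0.16 in transcription-coupled repair, -0.70 to -0.48 in the TFIIH core and -0.061 to 0.37 in the CDK-activating kinase. They ran from -0.45 to 0.025 in RPA, -0.48 to 0.022 in incision, 0.16 to 0.54 in translesion synthesis and -0.93 to -0.33 in mismatch repair. The median standard error was 0.41, and the 95% intervals of the members together span -1.57 to 1.47.

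**Figure D4:**
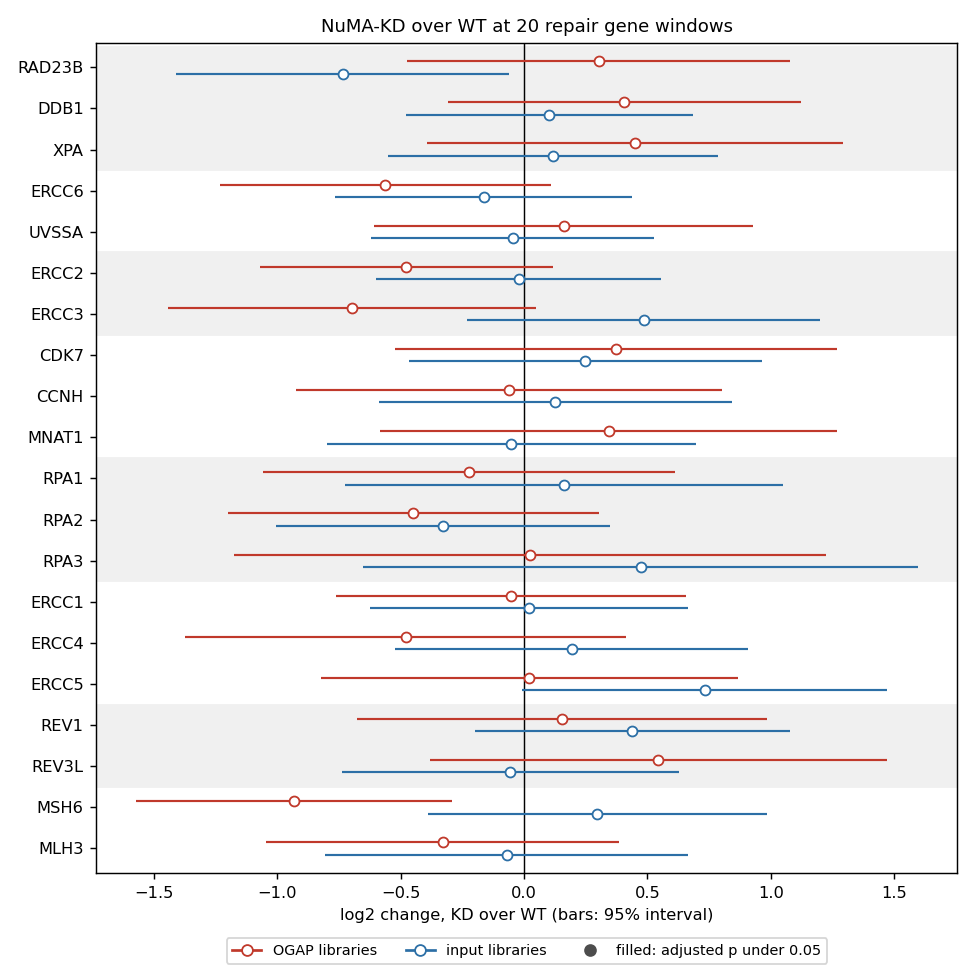
Log2 change of KD over WT for the 20 tested windows, in OGAP libraries (above) and in input libraries (below) for each gene, with bars for the 95% interval. No point is filled, as none passed the adjusted threshold; MSH6 lies lowest in OGAP, at -0.93.

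In input, KD against WT showed how the DNA differed without a pull-down. No member passed and no window of the 17130 did (0.0%), with edgeR or DESeq2; 1 member, RAD23B, had an unadjusted p under 0.05 (5.0%, against 4.41% of all windows). The members ranged from -0.73 to 0.73 with a median of 0.11, against -0.01 over all windows. RAD23B had 41.8 and 59.4 CPM in KD input, against 78.7 and 89.5 CPM in WT input (-0.73 ± 0.34, adjusted p = 0.999). ERCC5 had 57.6 and 59.4 CPM in KD input, against 33.9 and 36.3 CPM in WT input (0.73 ± 0.38, adjusted p = 0.999). Neither pair overlapped. They were among 6 members without overlap, 4 higher and 2 lower, where 35.0% of all windows were so separated, 17.3% higher and 17.7% lower. MSH6 was at 0.30 ± 0.35 and ERCC3 at 0.48 ± 0.36 in input, in the direction opposite to their OGAP values. Both were called in WT against these same WT inputs, so their directions here are given as a description. The lowest p of the other roles belonged to REV1 (0.44 ± 0.33), RPA2 (-0.33 ± 0.34), CDK7 (0.25 ± 0.36) and ERCC6 (-0.16 ± 0.31), each with an adjusted p of 0.999.

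The difference between the KD and WT changes of OGAP over input was tested as an interaction, and no member passed, where 0.00584% of all windows did (1 window, which was higher). With edgeR 0 of 20 were called and with DESeq2 0. MSH6 and ERCC3 had an unadjusted p under 0.05 (10% of members, against 8.14% of all windows). Both were called in WT, and the interaction holds the WT libraries of those calls, so their negative values are given as a description. MSH6 was at -1.23 ± 0.48 (95% interval -2.17 to -0.29, adjusted p = 0.499) and ERCC3 at -1.18 ± 0.53 (-2.22 to -0.15, adjusted p = 0.559). The ERCC3 value was -0.34 without WT OGAP replicate 2. At the other end, RAD23B was at 1.04 ± 0.53 (adjusted p = 0.614), and at -0.044 without KD OGAP replicate 1. REV3L was at 0.60 ± 0.59 (adjusted p = 0.834), MNAT1 at 0.40 ± 0.61 (adjusted p = 0.901), ERCC6 at -0.40 ± 0.46 (adjusted p = 0.865) and ERCC5 at -0.71 ± 0.57 (adjusted p = 0.786). The median of the members was -0.22, against 0.02 over all windows, with 13 negative and 7 positive. For UVSSA the interval of the difference ran from -0.75 to 1.17, for RPA1 from -1.61 to 0.83 and for MLH3 from -1.29 to 0.77.

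Other genes of these pathways, with the factors for gap filling, ligation and the ubiquitin signals of damage tolerance, gave few calls. Of 44 listed, 31 had a window named by position and 19 were tested. In WT 2 were higher and 0 lower past the threshold (10.5%, against 13.7% of all windows), with 4 at an unadjusted p under 0.05 (21.1%, against 28.5%), and in the 4 other comparisons none passed with edgeR. At an unadjusted p under 0.05 stood 6 for OGAP over input in KD (31.6%, against 12.6% of all windows), 2 for KD against WT among OGAP libraries (10.5%, against 10.6%), 0 among inputs (against 4.41%) and 1 for the interaction (5.26%, against 8.14%). DDB2, the partner of DDB1 in lesion recognition, held 41 and 51 reads in WT OGAP and 39 and 40 in WT input, a change of 1.26 ± 0.32 (adjusted p = 0.00336). POLE2, a subunit of the replicative polymerase epsilon, held 40 and 45 in WT OGAP and 44 and 24 in WT input, a change of 1.36 ± 0.34 (adjusted p = 0.00373). DDB2 did not pass without WT OGAP replicate 2 (1.15), nor POLE2 without WT input replicate 2 (0.95). With DESeq2 both passed in WT (adjusted p = 0.0275 for DDB2 and 0.0345 for POLE2). In KD neither passed, at 0.75 ± 0.32 for DDB2 and 0.35 ± 0.36 for POLE2.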

How the data were processed

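The authors deposited raw read counts per promoter window for 8 libraries of RPE1 DNA, 2 per group. Per the submitters' processing notes, BWA 0.7.17-r1188, bedtools, featureCounts and MACS2 were used with build hg38; no settings for them are given in the sources used here. Coverage summed over all genes was not used, since it holds no value for single genes. All 8 count columns were mapped to libraries by their labels.

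Members were found by Ensembl identifier and set beside RefSeq starts (GRCh38.p14). Other pathway genes were named where a window centre was at most 500 bp from the annotated start of 1 protein-coding gene. The counts went into edgeR 4.0.16 (R 4.3.3): TMM scaling, filterByExpr (17130 windows kept), 4 group means over all 8 libraries, quasi-likelihood F test, Benjamini-Hochberg threshold 0.05. Standard errors are the log2 change over the square root of F, and 95% intervals are 1.96 of them either side. The spread of a window was drawn toward that of all windows (98.4 prior and 4 residual degrees of freedom; common coefficient of variation 0.178), so a p says little about how closely that window's own libraries agreed. Replicates differed by more than sampling noise (chi-square per degree of freedom 1.90 to 2.14). The procedure was tested on simulated data. The members, the lists and the rule for naming genes (all members past the threshold, and the lowest p of each role in each comparison) were chosen with earlier results of these data known. Intervals cover the modelled spread between libraries, and read counts carry counting error besides.

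Alternatives were other scalings, DESeq2 1.42.0, no filter, a replicate block, each library left out, overlapping windows left out, autosomes without chromosomes 10 and 12, and only the compared libraries.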

Additional observations from a re-analysis of the deposited data

How the results depend on the processing

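The 5 members called for OGAP over input in WT became 1 (MSH6) with DESeq2, and 1 to 6 when each library was left out, 1 of them without WT input replicate 1, 2 without WT input replicate 2, 2 without WT OGAP replicate 2 and 3 without WT OGAP replicate 1. With upper quartile scaling ERCC3 (1.02) and MLH3 (0.99) were lost and REV3L (-1.22) gained. No member passed in the 4 other comparisons under any alternative run. Same-numbered libraries of different groups did not deviate together (correlations of -0.040 to 0.024), so the numbers were not taken as pairs; with the replicate block 4 members passed in WT, ERCC3 (1.07, adjusted p = 0.0520) being lost, and 0 in each other comparison. RPA1 gave no value where overlapping windows were left out, yet 5 members passed there in WT. With only the compared libraries 6 passed. REV3L did not pass in either setting (adjusted p = 0.0604 and 0.0607), so another member not called in the main fit passed in each.

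Over all windows, the 2346 called in WT became 884 with DESeq2, and 890 (without WT input replicate 2) to 2442 with each library left out, with 1210 without WT OGAP replicate 2 and 1524 without WT input replicate 1. The 126 called in KD became 40 with DESeq2, 60 on autosomes without chromosomes 10 and 12, and 8 (without KD input replicate 1) to 160 with each library left out, with 9 without KD OGAP replicate 2 and 21 without KD input replicate 2. For KD against WT in OGAP the 6 became 0 with DESeq2, 2 on those autosomes, 12 without a count filter and 11 with only the compared libraries; leaving libraries out gave 0 to 11. The 1 interaction call became 3 with RLE factors, without a filter or without overlapping windows, 0 with DESeq2, and 0 to 6 with libraries left out.

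Of 55 named log2 values, 16 changed sign with a library left out, none of them called. Their ranges were, for OGAP over input in KD, -0.51 to 0.21 (ERCC3) and -0.68 to 0.97 (RAD23B); for KD against WT in OGAP, -1.21 to 0.15 (ERCC3), -0.63 to 0.071 (MLH3), -0.54 to 0.061 (RPA1) and -0.16 to 0.60 (UVSSA); for KD against WT in input, -0.12 to 0.74 (CDK7), -0.59 to 0.76 (MLH3), -0.15 to 0.56 (RPA1), -0.65 to 0.090 (RPA2) and -0.15 to 0.051 (UVSSA); for the interaction, -0.70 to 0.0034 (ERCC6), -1.12 to 0.26 (MLH3), -0.043 to 0.78 (MNAT1), -0.044 to 1.60 (RAD23B) and -0.11 to 0.65 (UVSSA). The median change of the members was 0.02 in WT, between ERCC4 (-0.16) and RPA2 (0.20), but -0.15 without overlapping windows and -0.16 on those autosomes. The first setting dropped RPA1, and the second dropped ERCC6, on chromosome 10, so these medians cover fewer members. The WT median was -0.10 without WT OGAP replicate 1 and -0.044 without WT OGAP replicate 2. For KD against WT in OGAP the median was -0.02, but 0.047 without KD OGAP replicate 1. It was -0.17 without KD OGAP replicate 2 and -0.11 without WT OGAP replicate 1. For the interaction the median was -0.22, and -0.38 to -0.049 with libraries left out. Causes were not tested. With 8 to 59 reads per WT OGAP window among tested members, depth limits what these data can show.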
